A study of Mus musculus with 9 samples.

Results

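Orphan G protein-coupled receptors and adhesion G protein-coupled receptors were examined in RNA-seq libraries of brown fat (BAT), white fat (WAT) and soleus, a slow hindlimb muscle. The genes were taken by symbol: every gene whose symbol is Gpr followed by a digit or begins with Adgr, with the macrophage gene Adgre1 left out. This gave 97 genes of the 17753 in the expression matrix, 72 named Gpr and 25 named Adgr. Of these, 27 reached 1 FPKM (fragments counted per kilobase of a transcript and scaled to the library's mapped total, so a level per length) in at least 3 libraries and are described one gene at a time, 17 of them Gpr and 10 Adgr. The 3 tissues had 3 libraries each and came from male C57BL/6J mice aged 3 months, with no treatment named in the labels. The labels speak of 3 mice and do not say which libraries share an animal, nor which fat depots were taken, so p-values here measure the spread between these libraries. Because whole tissues were sequenced, fewer cells of a type and less RNA per cell cannot be told apart.

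G protein-coupled receptors cross the membrane with a bundle of helices and pass a signal from outside the cell to a G protein inside it. Orphan receptors carry a Gpr number because no ligand was agreed when they were named, and several have since been given ligands or found to be proteins of internal membranes. Adhesion receptors have a long extracellular part that is cleaved by the receptor itself and binds matrix proteins or neighbouring cells, and a tethered peptide behind the cleavage site can switch the receptor on. In fat, receptors of this class that raise or lower cyclic AMP control lipolysis and thermogenesis.

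Levels varied widely between the genes. Of the 97 genes, 17 were at 1 FPKM or more in all 9 libraries. The 27 described genes summed to 192.0, 185.1 and 178.1 FPKM in BAT, 206.2, 211.4 and 203.7 FPKM in WAT, and 124.5, 126.4 and 130.1 FPKM in soleus. The 3 tissues did not overlap in this sum, with WAT highest and soleus lowest. The 4 highest genes of a tissue held 43.8% of the summed FPKM of all 97 genes in BAT, 45.2% in WAT and 42.8% in soleus. The highest mean lay in BAT for 10 genes, in WAT for 15 and in soleus for 2, Gpr155 and Gpr157. Nearest above the threshold, the third highest library stood at 1.09 FPKM for Gpr173, 1.38 for Gpr182 and 1.49 for Adgrl2, and nearest below it at 0.945 for Gpr27, 0.901 for Gpr132 and 0.765 for Adgrg3. Gpr34 and Gpr173 reached 1 FPKM in all 3 libraries of WAT alone, Gpr157 of soleus alone and Gpr182 of BAT alone, so for these the threshold itself favoured a difference.

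**Figure D1:**
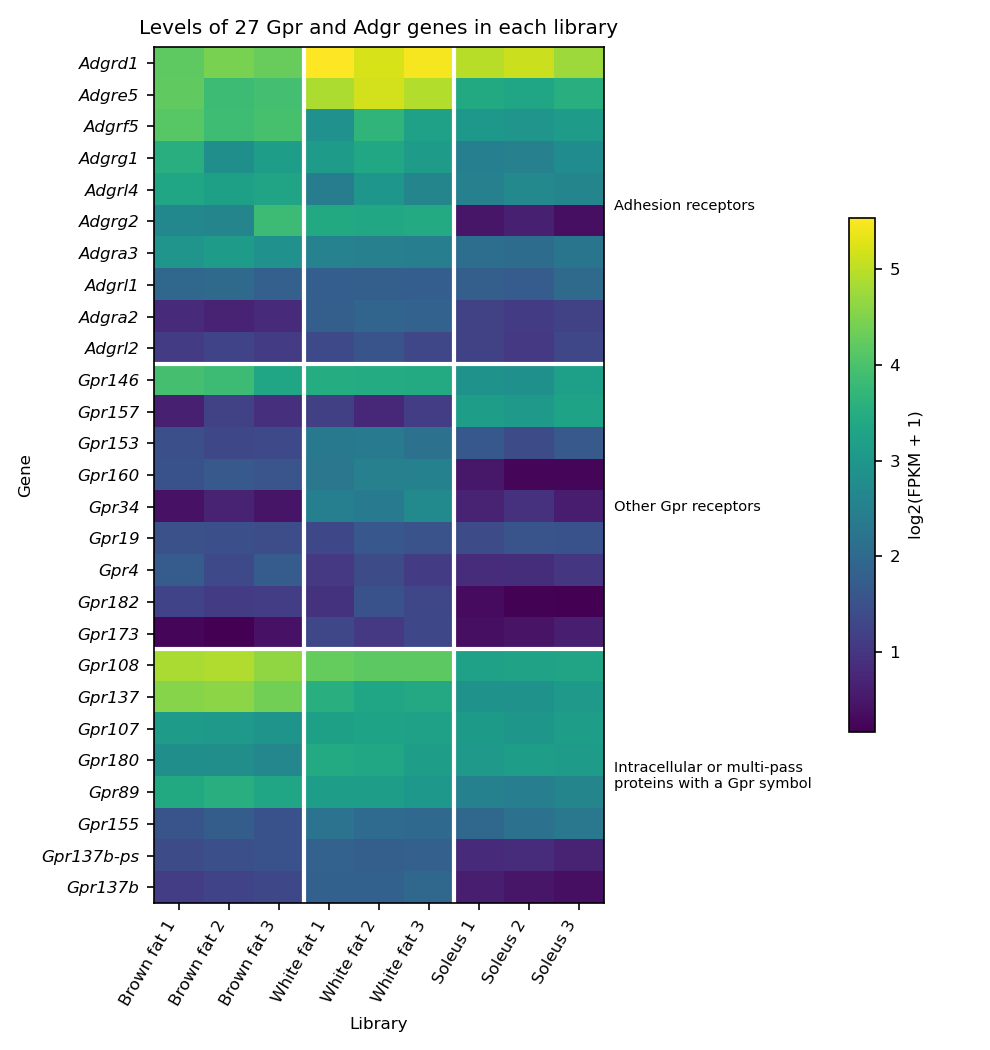
Level of each of the 27 genes (rows) in each of the 9 libraries (columns), coloured by log2(FPKM + 1). Adgrd1 is the brightest row in WAT and soleus and Gpr108 in BAT, and Adgrg2, Gpr157, Gpr160 and Gpr34 each differ in level between the tissues.

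Differences were tested with limma on log2(FPKM + 1), over 9913 genes and with Benjamini-Hochberg adjustment, and calls were made below an adjusted p of 0.05. In BAT against WAT, 7 of the 27 genes were called higher and 13 lower, where 38.0% and 34.8% of all tested genes were called in those directions. In BAT against soleus, 15 were higher and 5 lower, beside 52.9% and 25.6% of all genes. In WAT against soleus, 18 were higher and 1 lower, beside 54.5% and 29.7% of all genes. The median log2 fold change of the 27 genes was -0.19 in BAT against WAT, 0.59 in BAT against soleus and 0.48 in WAT against soleus, and that of all tested genes was 0.03, 0.29 and 0.35 in the same comparisons. The same shares of all genes apply to the calls of every list below. The comparisons share libraries, so their calls are not independent of each other.

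The balance of calls depended on how libraries were scaled to each other. After rescaling to TPM (each library brought to the same sum of FPKM), BAT against WAT gave 1 gene higher and 20 lower, while the median of all tested genes moved to -0.50, and WAT against soleus gave 26 higher and 1 lower, with that median at 0.93. Under median-of-ratios scaling, BAT against soleus gave 13 higher and 12 lower with the median of all genes at -0.04, and WAT against soleus gave 12 higher and 7 lower with it at 0.01. Upper-quartile scaling gave 6 higher and 13 lower in BAT against WAT, 13 and 11 in BAT against soleus, and 15 and 3 in WAT against soleus, with the median of all genes at -0.08, 0.01 and 0.19 in these comparisons. Of all genes called after TPM rescaling, 22.6% were higher in BAT against WAT and 78.8% in WAT against soleus. Under median-of-ratios scaling 47.5% were higher in BAT against soleus and 50.1% in WAT against soleus. Under upper-quartile scaling the shares of the 3 comparisons were 42.3%, 51.1% and 57.8%. Gpr137 was the only one of the 7 genes higher in BAT than in WAT that kept its call under all 3 scalings. All 13 genes lower in BAT than in WAT, 13 of the 15 higher and all 5 lower in BAT than in soleus, 12 of the 18 higher and the 1 lower in WAT than in soleus kept theirs.

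**Figure D2:**
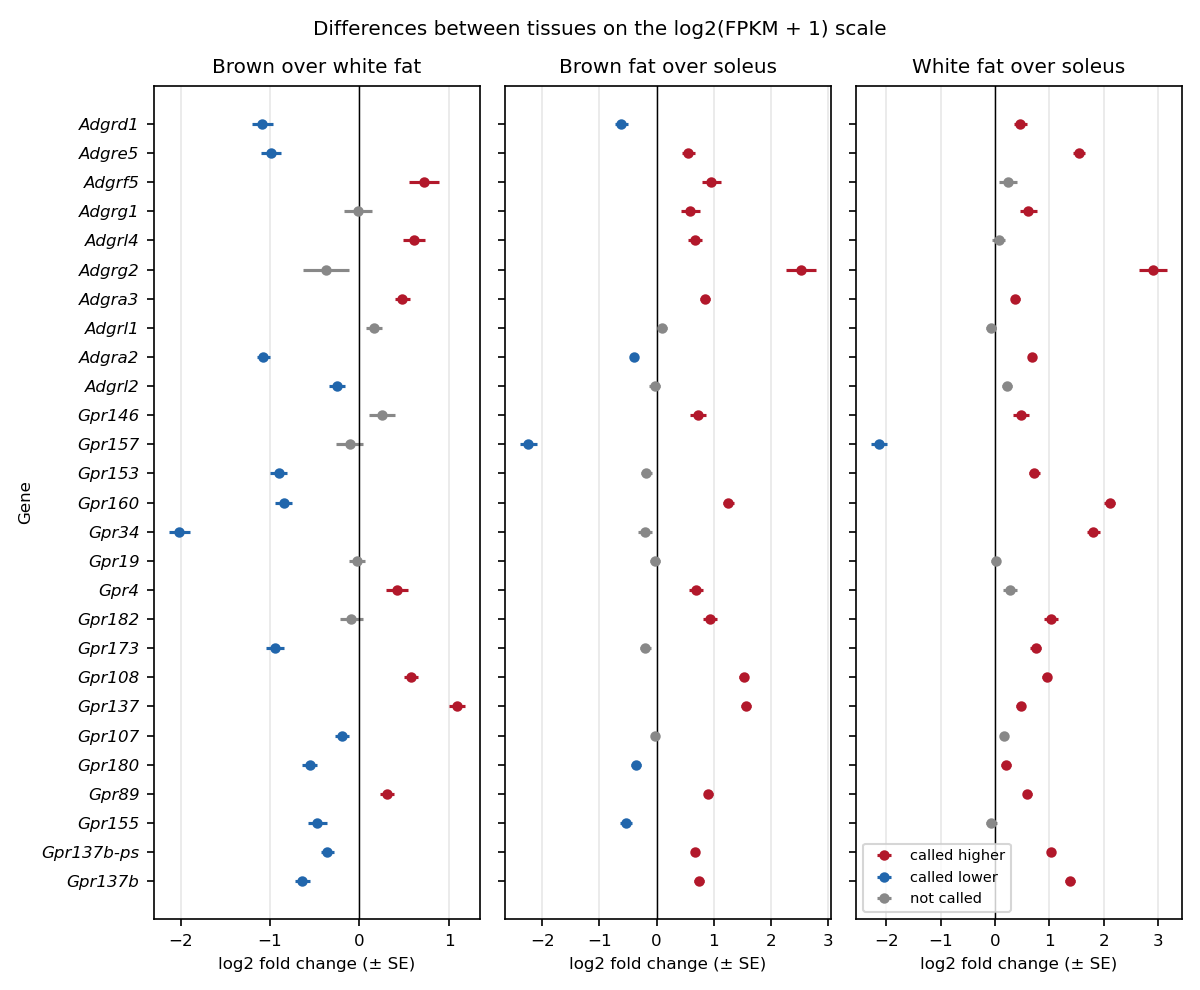
Log2 fold change on the log2(FPKM + 1) scale with its standard error for the 27 genes (rows) in the 3 comparisons (panels). Red marks genes called higher in the first tissue, blue genes called lower and grey genes not called at an adjusted p of 0.05 in limma. Gpr34 lies farthest left in the first panel and Gpr157 in the other panels, while all but Gpr137 of the red points of the first panel lose their call after rescaling to TPM.

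Adgrd1, an adhesion receptor that couples to the stimulatory G protein Gs and so raises cyclic AMP, had the highest mean of all members over the 9 libraries. It stood at 17.3, 20.8 and 18.6 FPKM in BAT, 45.3, 36.0 and 42.8 FPKM in WAT and 30.2, 33.2 and 25.7 FPKM in soleus. The 3 tissues did not overlap, with WAT highest and BAT lowest. Adgrd1 was lower in BAT than in WAT, with a log2 fold change of -1.08 (SE 0.12, adjusted p = 8.91e-06), and lower in BAT than in soleus, with -0.62 (SE 0.12, adjusted p = 0.000536). The difference of 0.47 between WAT and soleus (SE 0.12, adjusted p = 0.00323) was 0.04 under median-of-ratios scaling and was then not called, as it was not under upper-quartile scaling.

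Of the 5 receptors known from blood vessel endothelium, 3 were higher and 1 lower in BAT than in WAT, though after TPM rescaling none was higher and 2 were lower. In BAT against soleus, 4 were higher and 1 lower, under the main scaling and all 3 alternatives. Under the main scaling 38.0% of all tested genes were higher and 34.8% lower against WAT, and 52.9% and 25.6% against soleus. Adgrf5, which in lung controls surfactant and is also made by capillary endothelium, stood at 16.7, 13.6 and 14.6 FPKM in BAT, 6.41, 11.9 and 8.49 FPKM in WAT and 7.12, 6.79 and 7.73 FPKM in soleus. Adgrl4, an adhesion receptor of growing vessels, stood at 8.99, 8.35 and 8.90 FPKM in BAT, 4.43, 6.88 and 5.10 FPKM in WAT and 4.70, 5.48 and 5.11 FPKM in soleus. Both genes were above WAT and soleus in every BAT library, and their WAT and soleus ranges overlapped. Gpr4, a proton-sensing receptor of endothelium, followed at 2.32, 1.57 and 2.33 FPKM in BAT, 1.07, 1.66 and 1.14 FPKM in WAT and 0.800, 0.837 and 1.03 FPKM in soleus. Its second BAT library lay below the highest WAT library, and every library of either fat lay above soleus.

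Against WAT, the log2 fold change in BAT was 0.72 for Adgrf5 (SE 0.17, adjusted p = 0.00245), 0.61 for Adgrl4 (SE 0.12, adjusted p = 0.000958) and 0.42 for Gpr4 (SE 0.13, adjusted p = 0.0107). After TPM rescaling these values were 0.19, 0.11 and 0.08, with no call for any of the 3. Against soleus, the log2 fold change in BAT was 0.96 for Adgrf5 (adjusted p = 0.000291), 0.68 for Adgrl4 (adjusted p = 0.000369) and 0.69 for Gpr4 (adjusted p = 0.000399), and all kept the call under each alternative setting that tested them. WAT was called different from soleus for none of these 3, with log2 fold changes of 0.24, 0.07 and 0.27, and these depended on the scaling. Adgrf5 gave 0.79 (adjusted p = 0.004) after TPM rescaling, 0.43 (adjusted p = 0.0136) without WAT replicate 1 and -0.15 (adjusted p = 0.416) under median-of-ratios scaling, in a range of adjusted p between 0.004 and 0.819. Adgrl4 gave 0.61 (adjusted p = 0.00356) after TPM rescaling and -0.30 (adjusted p = 0.0423) under median-of-ratios scaling, so it was called in opposite directions, in a range between 0.00356 and 0.886. Gpr4 gave 0.86 (adjusted p = 0.00186) after TPM rescaling, in a range between 0.00186 and 0.719, and was also called without WAT replicate 1, at 0.34, or without BAT replicate 2, at 0.27.

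These 3 endothelial receptors were called higher in BAT than in both other tissues on the FPKM as deposited. For that reason the letters before their annotated starts are shown. The RefSeq promoter table gives 250 bases before and 50 bases after a start, on GRCm38.p6. Capitals mark the ETS words searched, AGGAAG and CGGAAG with their complements CTTCCT and CTTCCG. Both words are built around GGAA, the core that ETS factors such as those of endothelium recognise. GGAA also occurs elsewhere in each window, where it is not marked.
Adgrl4, chr3:151437632-151437931, plus strand: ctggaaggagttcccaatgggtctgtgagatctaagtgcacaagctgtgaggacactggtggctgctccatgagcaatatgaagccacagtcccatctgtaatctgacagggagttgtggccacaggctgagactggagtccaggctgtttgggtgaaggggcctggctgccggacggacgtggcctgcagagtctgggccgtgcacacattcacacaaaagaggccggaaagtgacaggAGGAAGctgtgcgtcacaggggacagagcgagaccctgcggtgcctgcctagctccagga
Adgrf5, chr17:43360181-43360480, plus strand: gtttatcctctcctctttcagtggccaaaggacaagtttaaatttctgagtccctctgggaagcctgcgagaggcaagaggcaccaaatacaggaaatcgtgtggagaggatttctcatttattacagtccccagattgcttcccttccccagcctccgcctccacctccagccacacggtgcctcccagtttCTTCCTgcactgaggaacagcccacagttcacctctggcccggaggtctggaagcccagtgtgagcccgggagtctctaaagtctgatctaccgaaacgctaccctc
Gpr4, chr7:19212288-19212587, plus strand: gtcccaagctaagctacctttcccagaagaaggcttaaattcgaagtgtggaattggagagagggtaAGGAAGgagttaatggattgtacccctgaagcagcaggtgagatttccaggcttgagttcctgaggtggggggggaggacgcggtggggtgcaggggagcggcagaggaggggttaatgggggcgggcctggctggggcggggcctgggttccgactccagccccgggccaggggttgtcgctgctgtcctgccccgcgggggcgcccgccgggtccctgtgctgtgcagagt
Each window holds 1 such word, with its first base at position -10 for Adgrl4, -57 for Adgrf5 and -183 for Gpr4, counted from the start. The Adgrf5 window belongs to the upstream of its 2 annotated starts, and the window of the other start holds none. Of the other members with both calls, Adgra3 and Gpr137 also hold an ETS word in a window, and Gpr89 and Gpr108 hold none. An ETS word occurs in 46.5% of the 32851 promoters of that table, so a match here is a description of the letters and not a site.

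The remaining endothelial receptors had other orders. Adgra2, which in brain vessels acts with Reck as a coactivator of Wnt7 signals, was at 0.742, 0.634 and 0.780 FPKM in BAT, 2.46, 2.76 and 2.63 FPKM in WAT and 1.32, 1.18 and 1.30 FPKM in soleus. The tissues were fully apart, with BAT lowest, and the log2 fold change was -1.07 against WAT (SE 0.07, adjusted p = 1.4e-07) and -0.40 against soleus (SE 0.07, adjusted p = 0.000277). Gpr182, an atypical receptor of endothelium that takes up chemokines, was at 1.38, 1.15 and 1.20 FPKM in BAT, 0.924, 1.88 and 1.47 FPKM in WAT and 0.253, 0.144 and 0.123 FPKM in soleus. Both fats were above soleus, by 0.94 in BAT (adjusted p = 4.72e-05) and 1.03 in WAT (adjusted p = 1.85e-05), and their ranges overlapped each other. BAT against WAT gave -0.09 for Gpr182 (adjusted p = 0.537), and -0.25 without WAT replicate 1 (adjusted p = 0.042), within a range between 0.0281 and 0.754 over its alternative settings.

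Endothelial marker genes were measured beside these receptors. The 7 markers in the matrix, among them Cdh5 and Pecam1 of endothelial junctions, summed to 110 to 118 FPKM in BAT, 55.2 to 79.9 FPKM in WAT and 75.9 to 82.5 FPKM in soleus. In BAT against WAT 6 of the 7 were called higher, and 2 were higher and 1 lower after TPM rescaling. Within WAT, replicate 2 was the highest library for all 5 receptors and for 5 of the 7 markers, and it was the shallowest of the 9. Without it Adgrf5, Adgrl4 and Gpr4 were still called higher in BAT than in WAT. Cdh5 was at 28.8, 26.1 and 28.2 FPKM in BAT, 11.6, 21.4 and 15.0 FPKM in WAT and 12.1, 11.8 and 14.3 FPKM in soleus. The part of the markers in the receptors' differences was not tested.

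**Figure D3:**
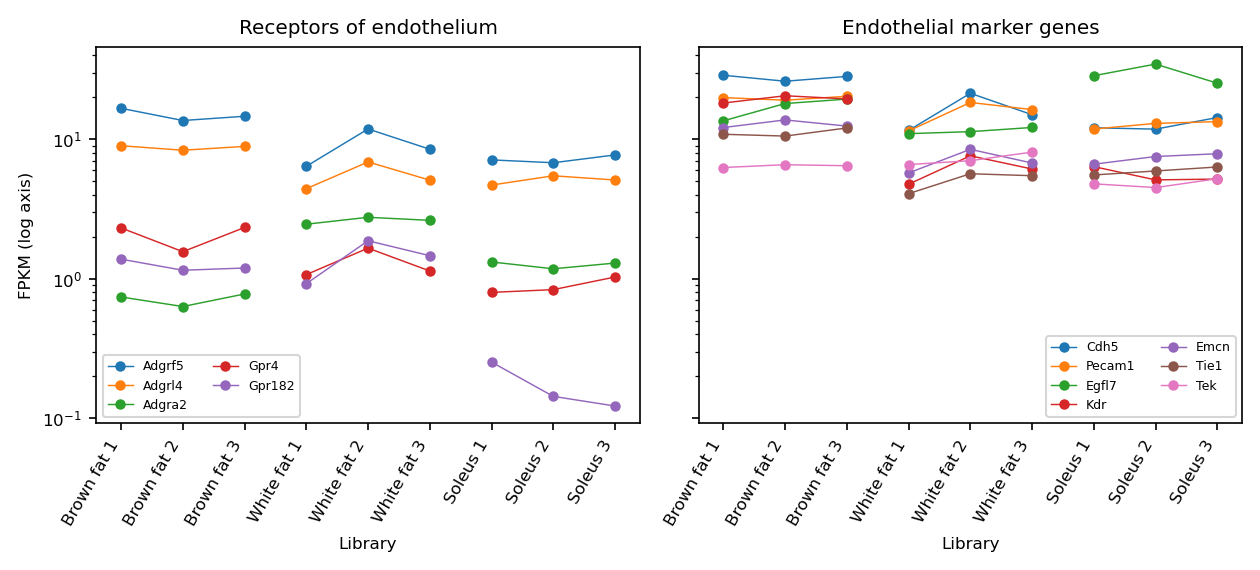
FPKM on a log axis of the 5 endothelial receptors (left) and 7 endothelial marker genes (right) in each library (points), with lines that only join the libraries of a tissue. Among the WAT points the second library is the highest for all 5 receptors, and Adgra2 is lowest in BAT, unlike Adgrf5 and Adgrl4.

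Of the 15 genes on a list of leukocyte receptors, 3 passed the threshold. All 3 were lower in BAT than in WAT and higher in WAT than in soleus, under the main scaling and the 3 alternatives. Under the main scaling 34.8% and 54.5% of all tested genes were called in those directions. Gpr34 passed the threshold through its WAT libraries alone, so for it these directions were favoured by the threshold. Adgre5, also called CD97, sits on most leukocytes and binds the complement regulator Cd55. It stood at 17.5, 13.3 and 14.3 FPKM in BAT, 28.5, 35.0 and 29.1 FPKM in WAT and 9.81, 9.11 and 10.7 FPKM in soleus, with no overlap between the tissues. Its log2 fold change was -0.99 in BAT against WAT (SE 0.11, adjusted p = 1.56e-05) and 1.55 in WAT against soleus (SE 0.11, adjusted p = 2.32e-07). The difference of 0.56 between BAT and soleus was called (adjusted p = 0.00101), but was 0.14 (adjusted p = 0.266) under median-of-ratios and 0.21 (adjusted p = 0.121) under upper-quartile scaling. Its adjusted p ran between 0.000656 and 0.266 over the alternative settings.

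Gpr34, a receptor for lysophosphatidylserine on macrophages and microglia, had the most negative fold change of the 27 summed genes in BAT against WAT. It was at 0.347, 0.605 and 0.388 FPKM in BAT, 4.59, 4.26 and 5.70 FPKM in WAT and 0.634, 0.898 and 0.488 FPKM in soleus. WAT stood far above the others, which overlapped, and the log2 fold change was -2.01 in BAT against WAT (SE 0.12, adjusted p = 8.03e-08) and 1.80 in WAT against soleus (SE 0.12, adjusted p = 9.2e-08). Gpr160, on the same list and proposed as a receptor for the peptide CART, was at 1.87, 2.16 and 2.01 FPKM in BAT, 3.90, 4.67 and 4.74 FPKM in WAT and 0.432, 0.180 and 0.182 FPKM in soleus. No tissues overlapped, and BAT was lower than WAT with a log2 fold change of -0.85 (adjusted p = 1.52e-05) and higher than soleus with 1.26 (adjusted p = 4.47e-07).

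The other 12 leukocyte receptors lay under the threshold and are given as levels. Gpr65, a proton-sensing receptor of lymphocytes and macrophages, was at 0.218, 0.409 and 0.271 FPKM in BAT, 0.699, 1.41 and 1.52 FPKM in WAT and 0.165, 0.0439 and 0.0669 FPKM in soleus. Gpr132, its relative that answers to lysolipids and acid, was at 0.164, 0.260 and 0.170 FPKM in BAT, 0.901, 1.11 and 1.52 FPKM in WAT and 0.0758, 0.0478 and 0.0821 FPKM in soleus. Adgre4, a close relative of Adgre1, was at 0.0921, 0.193 and 0.124 FPKM in BAT, 0.680, 0.807 and 1.26 FPKM in WAT and 0.0629, 0.0406 and 0.0186 FPKM in soleus. In each of these 3 every WAT library was above all others. Gpr183, the oxysterol receptor that guides B cells, reached 0.663 to 0.941 FPKM in WAT and no more than 0.131 in BAT and 0.179 in soleus.

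Macrophage markers were also highest in WAT. The 6 markers in the matrix, which hold Csf1r, Mrc1, Cd163, C1qa, C1qb and Adgre1, summed to 33.6 to 40.4 FPKM in BAT, 351 to 439 FPKM in WAT and 23.9 to 33.4 FPKM in soleus, and all 6 were called lower in BAT than in WAT. All 6 were highest in replicate 3 among the WAT libraries, as were 9 of the 15 leukocyte receptors, Gpr34, Gpr65, Gpr132, Gpr183 and Adgre4 among them. In soleus 5 of the 6 markers were highest in replicate 1, as were 10 of the 14 leukocyte receptors above 0 there. Adgre5 was instead highest in WAT replicate 2 and soleus replicate 3, and Gpr34 in soleus replicate 2. Without WAT replicate 3 Adgre5, Gpr34 and Gpr160 were still called lower in BAT than in WAT. The 8 lymphocyte markers summed to at most 2.45 FPKM in BAT, 4.19 FPKM in WAT and 1.17 FPKM in soleus. The part of these cells in the receptors' differences was not tested.

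**Figure D4:**
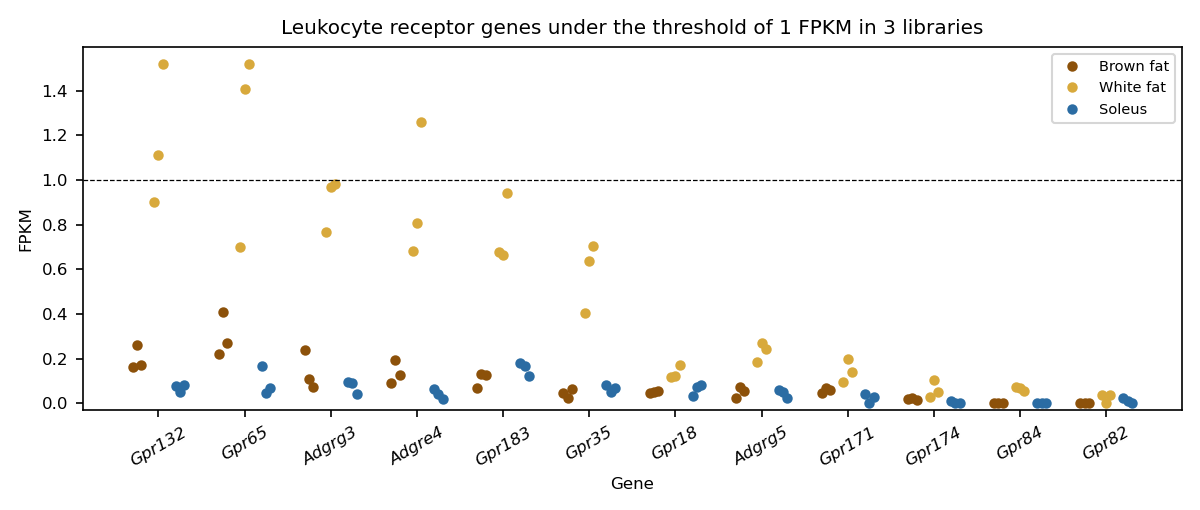
FPKM in each library (points) of the 12 leukocyte receptor genes that lay under the threshold of 1 FPKM in 3 libraries (dashed line). WAT stands above BAT and soleus in Gpr132, Gpr65, Adgrg3, Adgre4, Gpr183 and Gpr35, and 2 WAT libraries of Gpr65, 2 of Gpr132 and 1 of Adgre4 lie above the line.

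Adgrg2, a receptor that governs fluid uptake in the epididymis, and Adgrl1, a latrophilin of nerve terminals that binds teneurins and FLRT proteins, each held 2 rows in the deposited matrix, and their sums hide opposite movements. The matrix lists rows in a genomic order that keeps the strands apart: of 16935 genes with 1 row and enough placed neighbours, 99.6% lay among genes of their own strand. For both genes the first row (row a) lay among genes of the gene's own strand and the other (row b) among genes of the opposite strand. What row b holds was not settled by the sources used here. In the GENCODE annotation Gm15241, on the other strand, overlaps an exon of Adgrg2 by 105 bases. On the other strand from Adgrl1 lie Gm10644, with 215 bases of overlap, and microRNA genes. Of other genes with 2 rows, Gpr19 overlaps 2810454H06Rik by 270 bases, and Adgrg1 and Gpr146 overlap no other gene. The part of such overlaps in row b was not tested.

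Summed, Adgrg2 was at 5.39, 5.06 and 13.3 FPKM in BAT, 9.68, 9.41 and 9.85 FPKM in WAT and 0.414, 0.559 and 0.299 FPKM in soleus. BAT replicate 3 stood above the WAT libraries and the other BAT libraries below them. Row a was at 0.336, 0.304 and 0.431 FPKM in BAT, 9.60, 9.30 and 9.58 FPKM in WAT and 0.369, 0.460 and 0.299 FPKM in soleus. Row b was at 5.05, 4.76 and 12.9 FPKM in BAT, 0.0798, 0.111 and 0.274 FPKM in WAT and 0.0452, 0.0990 and 0 FPKM in soleus. Row a was thus high in WAT alone and row b in BAT alone, with no overlap.

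In BAT against WAT the summed gene gave a log2 fold change of -0.38 (SE 0.26, adjusted p = 0.219), while row a gave -2.95 (SE 0.07, adjusted p = 4.32e-10) and row b 2.77 (SE 0.27, adjusted p = 4.59e-06). Without BAT replicate 3 the sum gave -0.78 (adjusted p = 5.06e-05), within a range between 5.06e-05 and 0.616 over its alternative settings. In BAT against soleus the sum was called higher by 2.53 (SE 0.26, adjusted p = 4.87e-06), row a gave -0.02 (adjusted p = 0.807) and row b 2.90 (adjusted p = 2.23e-06). In WAT against soleus the sum gave 2.91 (SE 0.26, adjusted p = 1.23e-06) and row a 2.93 (SE 0.07, adjusted p = 6.54e-11). The row that stands just before row b in the matrix is Pdha1, a subunit of pyruvate dehydrogenase, at 860, 784 and 880 FPKM in BAT, 126, 123 and 111 FPKM in WAT and 254, 300 and 312 FPKM in soleus. Its part in row b was not tested.

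Adgrl1 summed to 2.97, 3.07 and 2.52 FPKM in BAT, 2.40, 2.46 and 2.43 FPKM in WAT and 2.48, 2.32 and 3.06 FPKM in soleus. No comparison was called in the main fit although every BAT library lay above WAT. Alternatives called the sum in opposite directions. BAT against WAT gave -0.33 (adjusted p = 0.0337) after TPM rescaling and 0.36 (adjusted p = 0.00519) with the highest row. WAT against soleus gave 0.41 (adjusted p = 0.00998) after TPM rescaling and -0.39 (adjusted p = 0.00116) under median-of-ratios scaling. The latter scaling gave -0.24 (adjusted p = 0.0218) in BAT against soleus. Row a was at 0.769, 0.717 and 0.835 FPKM in BAT, 1.31, 1.46 and 1.39 FPKM in WAT and 1.99, 1.86 and 2.30 FPKM in soleus. Row b was at 2.20, 2.35 and 1.69 FPKM in BAT, 1.09, 0.996 and 1.04 FPKM in WAT and 0.491, 0.462 and 0.757 FPKM in soleus. The rows ran through the tissues in opposite orders with no overlap between tissues in either. Row a gave -0.43 in BAT against WAT (adjusted p = 0.000357) and -0.35 in WAT against soleus (adjusted p = 0.00108), and row b gave 0.59 (adjusted p = 0.000334) and 0.38 (adjusted p = 0.00424) in the same comparisons. Adgrg1, Gpr146 and Gpr19 also had 2 rows, and in BAT against WAT neither row of any of them was called. In WAT against soleus, Gpr19 gave 0.21 (adjusted p = 0.0349) in row a alone, and Gpr146 gave 0.85 (adjusted p = 0.0195) in row b alone. Adgrg1 was called in row a, at 0.80 in BAT against soleus (adjusted p = 0.00124) and 0.84 in WAT against soleus (adjusted p = 0.000768), and not in row b, at 0.06 (adjusted p = 0.717) and 0.01 (adjusted p = 0.955) in the same comparisons.

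**Figure D5:**
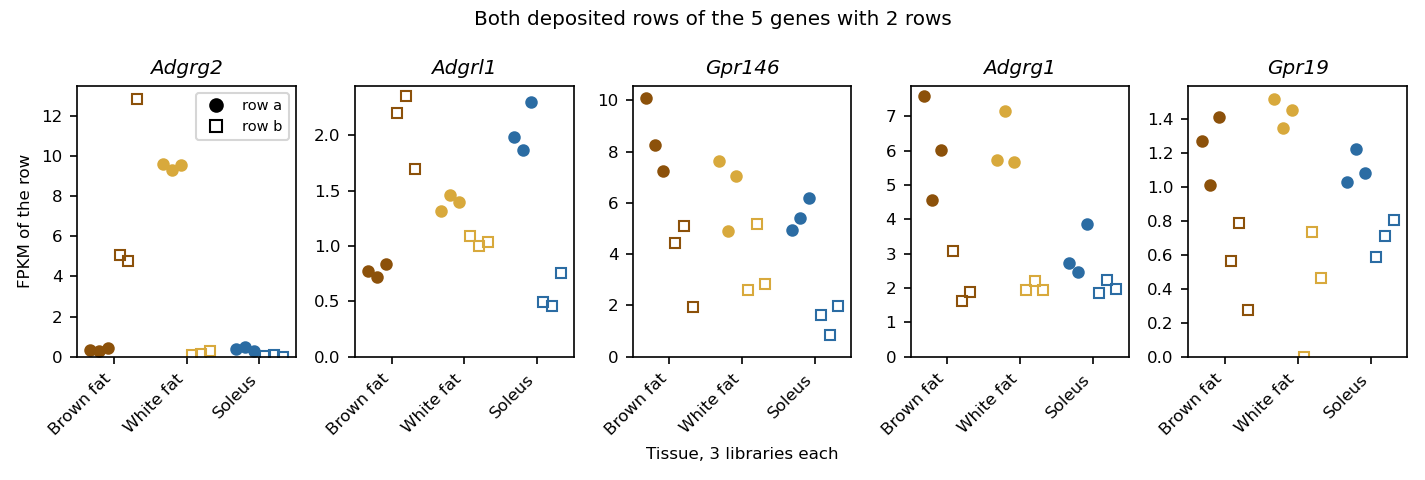
FPKM in each library (points) of the 2 matrix rows of Adgrg2, Adgrl1, Gpr146, Adgrg1 and Gpr19 by tissue, row a among genes of the same strand and row b among genes of the opposite strand. Row a of Adgrg2 is high in WAT and row b in BAT, and the rows of Adgrl1 run in opposite orders.

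Adgra3, Adgrg1 and Adgrl2 were the remaining adhesion receptors above the threshold. Adgra3, whose ligand is not established, was at 6.78, 7.67 and 6.34 FPKM in BAT, 4.80, 4.70 and 4.54 FPKM in WAT and 3.29, 3.15 and 3.77 FPKM in soleus. The tissues did not overlap. BAT exceeded soleus by 0.85 (SE 0.08, adjusted p = 3e-06), and the 0.48 over WAT (adjusted p = 0.000356) became -0.03 (adjusted p = 0.829) after TPM rescaling, the ends of its range being 0.000233 and 0.829. Adgrg1, a receptor for collagen III in the developing cortex, was at 10.7, 6.19 and 7.90 FPKM in BAT, 7.66, 9.36 and 7.61 FPKM in WAT and 4.58, 4.69 and 5.84 FPKM in soleus. The fats overlapped and both were above soleus, by 0.59 in BAT (adjusted p = 0.0057) and 0.61 in WAT (adjusted p = 0.00431), and neither was called under median-of-ratios scaling. Of its 2 rows, row a was called in both comparisons and row b in neither. Adgrl2, another latrophilin, lay between 1.07 and 1.96 FPKM in all libraries, and its -0.25 in BAT against WAT (adjusted p = 0.0327) was not called without WAT replicate 2 (-0.17, adjusted p = 0.119), nor without BAT replicate 1 or 3, in a range between 0.000512 and 0.119. Its 0.22 in WAT against soleus (adjusted p = 0.0521) was called without WAT replicate 3 (0.27) or soleus replicate 3 (0.28).

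Several proteins that carry a Gpr symbol work on internal membranes. They were grouped with other multi-pass proteins, and the group counts Gpr137b and its near copy Gpr137b-ps as separate genes. Of the 8 genes tested in this group, 3 were higher and 5 lower in BAT than in WAT. In BAT against soleus 5 were higher and 2 lower, and in WAT against soleus 6 were higher and none lower. Of all tested genes, 38.0% and 34.8%, 52.9% and 25.6%, and 54.5% and 29.7% were called in those directions. After TPM rescaling BAT against WAT gave 1 higher and 6 lower, and under median-of-ratios scaling WAT against soleus gave 4 higher and 3 lower. Gpr108, a Golgi protein, was the most abundant member in BAT at 27.8, 28.6 and 23.8 FPKM, against 18.3, 17.2 and 17.2 FPKM in WAT and 8.39, 8.59 and 8.85 FPKM in soleus. Gpr137, a lysosomal protein that acts on the growth kinase complex mTORC1, was at 22.7, 23.4 and 19.9 FPKM in BAT, 10.8, 9.09 and 9.54 FPKM in WAT and 6.42, 6.63 and 7.34 FPKM in soleus. Gpr89, which regulates the pH of the Golgi, was at 9.76, 10.5 and 9.15 FPKM in BAT, 7.98, 8.04 and 7.16 FPKM in WAT and 4.74, 4.47 and 5.10 FPKM in soleus. All 3 fell in the order BAT, WAT, soleus with no overlap.

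Gpr137 was higher in BAT than in WAT by 1.09 (SE 0.09, adjusted p = 9.08e-07) and higher than in soleus by 1.56 (SE 0.09, adjusted p = 3.32e-08). Gpr108 was higher than in soleus by 1.52 (SE 0.08, adjusted p = 1.64e-08), and its 0.58 over WAT (adjusted p = 6.36e-05) was 0.01 and not called after TPM rescaling. Gpr89 gave 0.31 in BAT over WAT (adjusted p = 0.00449), but -0.24 (adjusted p = 0.0476) after TPM rescaling and 0.16 (adjusted p = 0.0571) under upper-quartile scaling, which is the highest p of its alternatives, the lowest being 0.00323. In the GENCODE annotation an exon of Gpr137 overlaps Bad on the other strand by 517 bases, and Gpr89 overlaps Pdzk1 by 817 bases. The library kit does not mark strand, so fragments of such pairs cannot be told apart.

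The rest of this group ran the other way or varied little. Gpr180, which takes part in transforming growth factor beta signalling in thermogenic adipocytes, was at 6.11, 6.03 and 5.27 FPKM in BAT, 9.87, 9.25 and 7.95 FPKM in WAT and 7.36, 7.87 and 7.81 FPKM in soleus. BAT was below both other tissues, with log2 fold changes of -0.56 against WAT (SE 0.09, adjusted p = 0.000168) and -0.35 against soleus (SE 0.09, adjusted p = 0.00325), and both calls held under each alternative setting. WAT against soleus gave 0.20 (adjusted p = 0.0489), and -0.19 under median-of-ratios scaling. It was called in neither direction without WAT replicate 1 (0.14, adjusted p = 0.179), WAT replicate 2 (0.18, adjusted p = 0.116), BAT replicate 1 or 2, or any 1 soleus library, and the adjusted p ran between 1.36e-05 and 0.862 over all alternative settings.

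Gpr155, a lysosomal cholesterol sensor, was at 1.97, 2.37 and 1.85 FPKM in BAT, 3.60, 3.09 and 3.01 FPKM in WAT and 2.92, 3.48 and 3.98 FPKM in soleus. BAT was again below both, with log2 fold changes of -0.47 against WAT (adjusted p = 0.00194) and -0.54 against soleus (adjusted p = 0.000633), and WAT and soleus overlapped. Gpr107, a Golgi protein related to Gpr108, was at 7.83, 7.35 and 6.67 FPKM in BAT, 8.30, 8.64 and 8.43 FPKM in WAT and 7.48, 6.99 and 7.89 FPKM in soleus. BAT against WAT gave -0.19 (adjusted p = 0.0364), not called without BAT replicate 2 or 3 or without any 1 WAT library, where the weakest was -0.14 (adjusted p = 0.138, in a range between 3.26e-05 and 0.138). WAT against soleus gave 0.16 (adjusted p = 0.061), and was called without soleus replicate 3, at 0.20. Gpr137b, a lysosomal relative of Gpr137, and its near copy Gpr137b-ps share sequence, so their division is uncertain. Gpr137b was at 1.20, 1.38 and 1.52 FPKM in BAT, 2.59, 2.56 and 2.91 FPKM in WAT and 0.540, 0.407 and 0.307 FPKM in soleus. Gpr137b-ps was at 1.62, 1.78 and 1.87 FPKM in BAT, 2.59, 2.48 and 2.54 FPKM in WAT and 0.773, 0.787 and 0.620 FPKM in soleus. Both were highest in WAT and lowest in soleus with no overlap, and all 3 comparisons were called for each.

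Gpr157, a receptor found on primary cilia of radial glia, was the only member called lower in WAT than in soleus on the FPKM as deposited, where median-of-ratios scaling called 7. It stood at 0.558, 1.29 and 0.887 FPKM in BAT, 1.26, 0.698 and 1.21 FPKM in WAT and 7.90, 7.33 and 8.66 FPKM in soleus. Soleus was far above both fats, which overlapped, and the log2 fold change was -2.24 in BAT (SE 0.15, adjusted p = 1.16e-07) and -2.13 in WAT (SE 0.15, adjusted p = 1.37e-07). The 6 muscle fibre markers in the matrix summed to 26.4, 195 and 103 FPKM in the BAT libraries, the same order as Gpr157 there. They summed to 1.67, 2.59 and 3.73 FPKM in the WAT libraries and to 37700, 45850 and 41110 FPKM in the soleus libraries. Within WAT and within soleus the order of Gpr157 was another. The part of muscle RNA in the BAT level of Gpr157 was not tested. The promoter of Gpr157 is shown because its excess in soleus was the largest of the members, with the GC box GGGCGG (complement CCGCCC) in capitals.
Gpr157, chr4:150087253-150087552, plus strand: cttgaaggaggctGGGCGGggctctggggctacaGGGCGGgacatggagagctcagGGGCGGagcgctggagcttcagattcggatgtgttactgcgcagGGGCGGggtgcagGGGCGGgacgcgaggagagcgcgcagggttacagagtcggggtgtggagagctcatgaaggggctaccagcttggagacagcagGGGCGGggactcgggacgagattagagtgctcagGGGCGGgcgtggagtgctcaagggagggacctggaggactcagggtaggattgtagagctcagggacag
It holds 7 GC boxes, in all of which the word lies on the strand shown, the nearest at position -19 from the start. At least 1 GC box on either strand occurs in 35.7% of the promoters of the table, and the share with 7 was not counted. Among the members, the window of Gpr155 also holds 7 and a window of Gpr146 holds 6, while those of Gpr107 and Gpr89 hold none. Neither an ETS word, an E-box CAGCTG (16.3% of promoters) nor a cyclic AMP element TGACGT (7.51%) is found in this window, which says nothing about any factor.

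Of the remaining Gpr genes, Gpr146, which affects plasma cholesterol through the liver, was the most abundant at 14.5, 13.3 and 9.18 FPKM in BAT, 10.2, 10.1 and 9.87 FPKM in WAT and 6.55, 6.26 and 8.18 FPKM in soleus. BAT replicate 3 alone fell below the WAT range. BAT against WAT gave 0.25 (adjusted p = 0.149), and 0.43 (adjusted p = 0.0052) without BAT replicate 3, the ends of its range being 0.0052 and 0.539. BAT was higher than soleus by 0.72 (SE 0.15, adjusted p = 0.000872), a call that every alternative setting kept. Gpr173, proposed as a receptor for phoenixin, was at 0.203, 0.136 and 0.338 FPKM in BAT, 1.48, 1.09 and 1.53 FPKM in WAT and 0.310, 0.366 and 0.534 FPKM in soleus. WAT alone was high, with log2 fold changes of -0.95 in BAT against WAT (SE 0.10, adjusted p = 8.25e-06) and 0.75 in WAT against soleus (SE 0.10, adjusted p = 3.44e-05). Gpr173 passed the threshold through its WAT libraries alone, so for it these directions were favoured by the threshold.

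Gpr153, an orphan, was at 1.79, 1.50 and 1.56 FPKM in BAT, 4.02, 4.21 and 3.48 FPKM in WAT and 2.15, 1.62 and 2.15 FPKM in soleus. WAT again stood above both others, with log2 fold changes of -0.90 in BAT against WAT (SE 0.10, adjusted p = 7.6e-06) and 0.72 in WAT against soleus (SE 0.10, adjusted p = 2.95e-05). BAT against soleus gave -0.18 (adjusted p = 0.104), and was called without soleus replicate 2, at -0.27, and at -0.48 (adjusted p = 0.000969) under median-of-ratios and -0.42 (adjusted p = 0.00238) under upper-quartile scaling, in a range between 0.000969 and 0.268. Gpr19, an orphan of dividing cells, lay between 1.52 and 2.07 FPKM in all 9 libraries. None of its comparisons was called, although median-of-ratios scaling gave -0.28 (adjusted p = 0.0113) and TPM rescaling 0.50 (adjusted p = 0.00477) in WAT against soleus, within a range between 0.00477 and 0.934.

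Of the 70 members under the threshold, 9 were listed at 0 in every library, and in all 34 stayed under 0.1 FPKM, those 9 included. The under-threshold genes summed to 3.58, 4.07 and 3.96 FPKM in BAT, 12.5, 13.5 and 15.3 FPKM in WAT and 4.56, 4.18 and 4.30 FPKM in soleus. Of the 61 above 0, the highest mean lay in BAT for 10, in WAT for 36 and in soleus for 15. Gpr27, an orphan known from pancreas and brain, was at 0.259, 0.167 and 0.243 FPKM in BAT, 1.36, 0.945 and 1.15 FPKM in WAT and 0.620, 0.471 and 0.652 FPKM in soleus, apart in all tissues. Gpr39, a zinc-sensing receptor, was at 0.0330, 0.0282 and 0 FPKM in BAT, 0.649, 0.899 and 0.422 FPKM in WAT and 0.0833, 0 and 0.0123 FPKM in soleus. Gpr37l1, known from glia, ran the other way, at 0.444, 0.378 and 0.498 FPKM in BAT, 0.0283, 0 and 0.0274 FPKM in WAT and 0.138, 0.313 and 0.224 FPKM in soleus.

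No receptor of the glial and neuronal list, the Adgrb group or the constitutively active list passed the threshold. Gpr3, a constitutively active receptor that cold induces in brown fat, was at 0.00741, 0.0257 and 0 FPKM in BAT, 0, 0 and 0.0115 FPKM in WAT and 0.00875, 0 and 0.0142 FPKM in soleus. The labels name no housing temperature. At these levels a difference between tissues was not detectable.

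Ligands and partners of the adhesion receptors were lower in BAT than in WAT for 11 of the 12 tested and higher for none, and 11 were higher in WAT than in soleus, under every scaling. BAT against soleus gave 4 higher and 4 lower, beside 52.9% and 25.6% of all tested genes. Of all tested genes 34.8% were lower in BAT than in WAT and 54.5% higher in WAT than in soleus under the main scaling. Col3a1, the collagen that Adgrg1 binds, was at 87.7, 66.9 and 71.7 FPKM in BAT, 329, 478 and 369 FPKM in WAT and 70.8, 58.8 and 81.1 FPKM in soleus, a log2 fold change of -2.36 in BAT against WAT (SE 0.16, adjusted p = 2.57e-07). Flrt2, a partner of the latrophilins, was at 0.217, 0.204 and 0.239 FPKM in BAT, 4.38, 5.63 and 5.35 FPKM in WAT and 2.40, 2.05 and 2.27 FPKM in soleus. Adipose progenitor markers, which include matrix genes such as Dcn, summed to 111 to 141 FPKM in BAT, 715 to 931 FPKM in WAT and 224 to 290 FPKM in soleus, and their part was not tested.

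A list of ligands and ligand enzymes proposed for orphan receptors, which also holds the chemerin receptors Cmklr1 and Ccrl2, gave 1 higher and 5 lower of 6 tested in BAT against WAT, and 0 and 5 after TPM rescaling. Penk, the enkephalin precursor, was at 0.437, 0.885 and 1.11 FPKM in BAT, 54.6, 39.0 and 73.3 FPKM in WAT and 3.70, 1.98 and 1.75 FPKM in soleus, a difference of -4.94 in BAT against WAT (SE 0.25, adjusted p = 2.59e-08). Cmklr1 was among the lower genes, at -3.48 (SE 0.15, adjusted p = 1.03e-08). A list of renamed genes, most of which once bore a Gpr number, holds receptors now named for a ligand and also Wls, which carries Wnt proteins to the cell surface, and Tpra1. It gave 1 higher and 5 lower of 8 tested in BAT against WAT, and 7 higher and none lower in each fat against soleus. Beside both lists, 38.0% of all tested genes were higher and 34.8% lower in BAT against WAT. Against soleus, 52.9% of all tested genes were higher in BAT and 54.5% in WAT. Under median-of-ratios scaling BAT against soleus gave 4 higher and 1 lower in the list of renamed genes, and WAT against soleus 7 and 1. Sucnr1, the succinate receptor, was at 2.83, 2.84 and 4.09 FPKM in BAT, 60.8, 55.3 and 58.4 FPKM in WAT and 1.86, 0.549 and 0.314 FPKM in soleus, and Ffar2, a receptor for short-chain fatty acids, gave -3.37 in BAT against WAT (SE 0.19, adjusted p = 6.15e-08).

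Hcar1, the lactate receptor of adipocytes, was at 35.3, 23.2 and 28.1 FPKM in BAT, 32.9, 52.6 and 28.2 FPKM in WAT and 1.08, 0.263 and 0.123 FPKM in soleus, so that the fats overlapped far above soleus. Adipocyte markers in the soleus libraries summed to 147, 58.0 and 28.4 FPKM, the order of Hcar1 there, and their part was not tested.

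The proteins that carry receptor signals differed between the fats as well. Of 9 G protein alpha subunits tested, 5 were higher and 4 lower in BAT than in WAT, 8 higher and none lower in BAT than in soleus, and 6 higher and 3 lower in WAT than in soleus. Of all tested genes, 38.0% and 34.8%, 52.9% and 25.6%, and 54.5% and 29.7% were called in those directions. After TPM rescaling BAT against WAT gave 4 higher and 5 lower. Gnas, which encodes the stimulatory Gs subunit, was higher in BAT than in WAT by 2.41 (SE 0.19, adjusted p = 7.89e-07), and Gnai1, an inhibitory subunit, was lower, at -2.71 (SE 0.22, adjusted p = 9.16e-07). Gnai1 stood at 20.3, 16.6 and 16.5 FPKM in BAT, 122, 122 and 122 FPKM in WAT and 3.79, 1.90 and 1.22 FPKM in soleus. Of 6 receptor kinases and arrestins, 4 were higher and 2 lower in BAT than in WAT, and 1 and 3 after TPM rescaling. Grk3, a kinase that marks active receptors for arrestin, was at 29.2, 27.0 and 26.7 FPKM in BAT, 1.71, 1.71 and 1.96 FPKM in WAT and 0.398, 0.305 and 0.357 FPKM in soleus, and Arrb2, an arrestin, gave -1.68 in BAT against WAT (SE 0.08, adjusted p = 2.26e-08).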

How the data were processed

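RNA-seq of 9 libraries, 3 each of BAT, WAT and soleus, was available as 1 table of FPKM deposited by the authors, with rows named by RefSeq accessions. Per the submitters' processing notes, TopHat 1.4.1, Cufflinks 2.0.1 and mm9 were used, and per the labels' protocols TRIzol was used for extraction and an Illumina TruSeq RNA kit for the libraries. FPKM divides fragments by transcript length and library total, so very abundant transcripts lower all others. Of 18401 rows, 18305 were named from a RefSeq table and 38 from GENCODE M21, 55 had no symbol and 3 several. Rows of the same symbol were summed, giving 17753 genes, of which 541 had several rows. A summed gene can join rows that do not hold the same transcript. Strand and overlap came from GENCODE on another build than mm9, so no coordinates of the matrix are given, and promoters came from RefSeq on GRCm38.p6.

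The 9913 genes that reached 1 FPKM in 3 or more libraries were fitted on log2(FPKM + 1) with limma 3.58.1 in R 4.3.3, with a mean-variance trend, all 9 libraries in 1 fit and 6 residual degrees of freedom. Tests were two-sided and adjusted by Benjamini-Hochberg within each of 3 comparisons, with calls at 0.05. Fold changes on this scale understate the change of low genes. The fit was tested on simulated data. Tables were made with pandas 2.3.3 in Python 3.11.15 and plots with matplotlib 3.10.9.

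Read totals were not given. Ratios of values at or under 0.3 FPKM gave relative depths of 1.52 to 2.78 in BAT, 1 to 3.58 in WAT and 1.45 to 2.35 in soleus, so WAT replicate 2 was the shallowest, and no counts were used. Adipocyte and muscle markers were high in the tissues of those labels. The members and lists were chosen with earlier results of these data known. Every member past the threshold is named, with levels in each library for the 8 highest means, the 6 largest called changes per comparison and direction and the 2 highest of each list. Values of other members and under-threshold genes were added after their values were seen. Of the lists of partners and signalling proteins, counts and up to 2 called genes per comparison are given, and Hcar1, Cdh5 and Pdha1 were added later. Alternatives were pseudocounts of 0.1 and 5, no filter, a mean of at least 5 FPKM, 3 scalings, no trend, the replicate block, the highest row of a symbol, each pair of tissues alone and each library left out. Rows kept apart were added after seeing the data.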

Additional observations from a re-analysis of the deposited data

How the results depend on the processing

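Counts of members called moved by more than 1.5 times as follows. After TPM rescaling, BAT against WAT gave 1 higher and 20 lower. With a mean of at least 5 FPKM, which tests fewer members, it gave 4 lower, BAT against soleus 2 lower, and WAT against soleus 10 higher and 0 lower. Median-of-ratios scaling gave 12 lower in BAT against soleus and 7 lower in WAT against soleus, and upper-quartile scaling 11 and 3. The highest row of a symbol gave 2 lower in WAT against soleus. Leaving out each library in turn gave 7 to 8 higher and 11 to 13 lower in BAT against WAT, 15 higher and 5 to 6 lower in BAT against soleus, and 17 to 19 higher and 1 lower in WAT against soleus. Beyond the fewer genes tested, the cause was not tested. In BAT against WAT log2 fold changes that changed sign were Adgra3 -0.026, Adgrl1 -0.33, Gpr146 -0.31 and Gpr89 -0.24 after TPM rescaling, Adgrl1 -0.43 in row a alone, and Adgrg1 0.049, Adgrg2 2.77 and Gpr19 0.16 in row b alone. In BAT against soleus they were Adgrl1 -0.24 under median-of-ratios scaling, Adgrl1 -0.18 under upper-quartile scaling, Adgrg2 -0.020, Adgrl1 -0.78 and Gpr19 0.076 in row a alone, and Gpr19 0.076 with the highest row of a symbol. In WAT against soleus they were Adgrl1 0.41 and Gpr155 0.43 after TPM rescaling, Adgrf5 -0.15, Adgrl2 -0.042, Adgrl4 -0.30, Gpr107 -0.22, Gpr180 -0.19 and Gpr19 -0.275 under median-of-ratios scaling, Adgrl4 -0.11, Gpr107 -0.024 and Gpr19 -0.13 under upper-quartile scaling, and Adgrl1 0.38 and Gpr19 -0.32 in row b alone. Leaving out 1 library at a time, values not called with all libraries crossed 0, in the ranges -0.20 to 0.15 for Adgrg1, -0.25 to 0.028 for Gpr157, -0.25 to 0.042 for Gpr182 and -0.11 to 0.031 for Gpr19 in BAT against WAT, -0.11 to 0.024 for Adgrl2, -0.078 to 0.024 for Gpr107 and -0.070 to 0.012 for Gpr19 in BAT against soleus, and -0.13 to 0.013 for Adgrl1, -0.081 to 0.19 for Adgrl4, -0.16 to 0.012 for Gpr155 and -0.051 to 0.094 for Gpr19 in WAT against soleus. Of 1578 alternative values of single members, 1461 kept direction and side of the threshold. With the direction kept, 40 lost a call and 43 gained one. The other 34 changed sign, and some of these lost or gained a call as well. The 1578 include fits without a library of the third tissue, in which a fold change cannot move.

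Libraries of the same replicate number did not deviate together, with correlations between -0.22 and 0.077 across genes. The fit with the replicate block gave 7 higher and 11 lower in BAT against WAT, 15 and 5 in BAT against soleus, and 17 and 1 in WAT against soleus. The numbers are not taken to pair the libraries. Values of exactly 0 can be failed estimates, and depth limits the genes under 0.1 FPKM.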
